A study of Mus musculus with 7 samples.

Results

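The 10 genes described here take up, move, store, export or sense iron, and were followed in the femurs of wild-type mice after a traumatic brain injury (TBI). The members were listed by name: Tfrc, Steap3, Slc11a2, Slc40a1, Fth1, Ftl1, Slc25a37, Slc25a39, Ireb2 and Aco1. These are 10 of the 49671 Ensembl genes in the deposited count table, all 10 were found by symbol, and all 10 passed the filter on low counts. One group received a controlled cortical impact, a mechanical blow to the surface of the brain (TBI, 4 libraries), and the other was uninjured (control, 3 libraries). RNA came from the whole femur, crushed, 3 days after the injury, so bone, cartilage, marrow and any attached muscle were measured together. Whether the uninjured mice had a sham operation is not stated, so effects of surgery and of the blow cannot be told apart. The labels used here name no strain or age and do not say that each library came from its own mouse. The p-values therefore rest on library-to-library spread, which may be technical.

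Cells take iron from the blood on transferrin, which binds the transferrin receptor and is carried into an endosome. There the iron is reduced and carried by a transporter into the cytosol. From the cytosol the iron goes to mitochondria for heme and iron-sulfur clusters, into the ferritin shell for storage, or out of the cell through ferroportin. The marrow is the main user of this traffic, because red cell precursors fill themselves with heme, and marrow macrophages return the iron of old red cells. When iron is scarce, the iron regulatory proteins grip a small RNA hairpin, the iron-responsive element. In the 5′ untranslated region (UTR) a gripped hairpin holds back translation, as in ferritin and ferroportin mRNAs, and in the 3′ UTR it protects the mRNA from decay, as in the transferrin receptor mRNA. A change in translation through a 5′ element would not be seen in mRNA counts.

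The hairpins of the members are shown here because they split the genes by how iron can act on the mRNA that was counted. They were searched on the transcript strand of GENCODE M21 (GRCm38) as a bulged C, a stem of 5 bases, the loop CAGTG with any following base but G, and 5 bases that pair with the stem as A-T, G-C or G-T. Capitals mark the 6 bases of the loop, and each printed site is 29 bases long, written 5′ to 3′.
Fth1 5′ UTR: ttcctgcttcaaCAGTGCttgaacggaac
Ftl1 5′ UTR: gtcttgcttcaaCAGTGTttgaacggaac
Slc40a1 5′ UTR: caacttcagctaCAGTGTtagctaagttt
Tfrc 3′ UTR, site 1: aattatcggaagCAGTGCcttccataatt
Tfrc 3′ UTR, site 2: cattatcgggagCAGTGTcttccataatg
Tfrc 3′ UTR, site 3: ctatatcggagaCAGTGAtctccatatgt
Tfrc 3′ UTR, site 4: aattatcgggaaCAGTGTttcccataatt

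The Fth1 site lies at chr19:9982732-9982760 on the plus strand, in exon 1 of 4. The Ftl1 site lies at chr7:45459779-45459807 on the minus strand, also in exon 1 of 4, and the Slc40a1 site at chr1:45925465-45925493 on the minus strand, in exon 1 of 8. The 4 Tfrc sites all lie in the last exon, exon 19, on the plus strand, at chr16:32631219-32631247, chr16:32631598-32631626, chr16:32631663-32631691 and chr16:32631710-32631738. Such a hairpin was rare: 23 of 20916 genes (0.110%) had one in a 5′ UTR and 100 of 21039 (0.475%) in a 3′ UTR, whereas the letters CAGTG alone stood in 33.8% and 69.2% of them. No match was found in the UTRs of Slc11a2, Steap3, Slc25a37, Slc25a39, Ireb2 or Aco1, which says only that this exact pattern is not in those UTRs. The counts are per gene, so isoforms with and without a hairpin were not separated.

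Of the 10 iron genes, Slc25a39 and Slc11a2 had no overlap between groups, with mean levels after TBI at 69.4% and 80.0% of the control mean. Slc25a37 stood at 77.9%, and a single TBI library overlapped a control. The other 7 genes, including the transferrin receptor, ferroportin, both ferritin subunits and both iron sensors, had overlapping groups and estimates within 0.20 of 0 on the log2 scale. No member passed in edgeR's quasi-likelihood test adjusted over all 17144 genes tested, where 0.0% of all genes were called in either direction. Before adjustment, 2 of the 10 members had a p under 0.05, both lower, against 4.97% of all genes lower, 2.37% higher and 7.34% in either direction. In DESeq2, 1 of the 10 (Slc25a39, lower) passed, against 0.672% of the genes with an adjusted p called lower, 0.0646% called higher and 0.736% in either direction. Every TBI library lay below every control for 2 of 10 members, against 5.38% of all genes tested. Every TBI library lay above every control for 0 of 10, against 2.66%. The median log2 fold change of the members was -0.0071 (range -0.53 to 0.12), beside 0.0263 over all genes tested (quartiles -0.15 and 0.21). An estimate below 0 was found for 5 members and one above 0 for 5, while 45.6% of all genes were below 0.

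**Figure D1:**
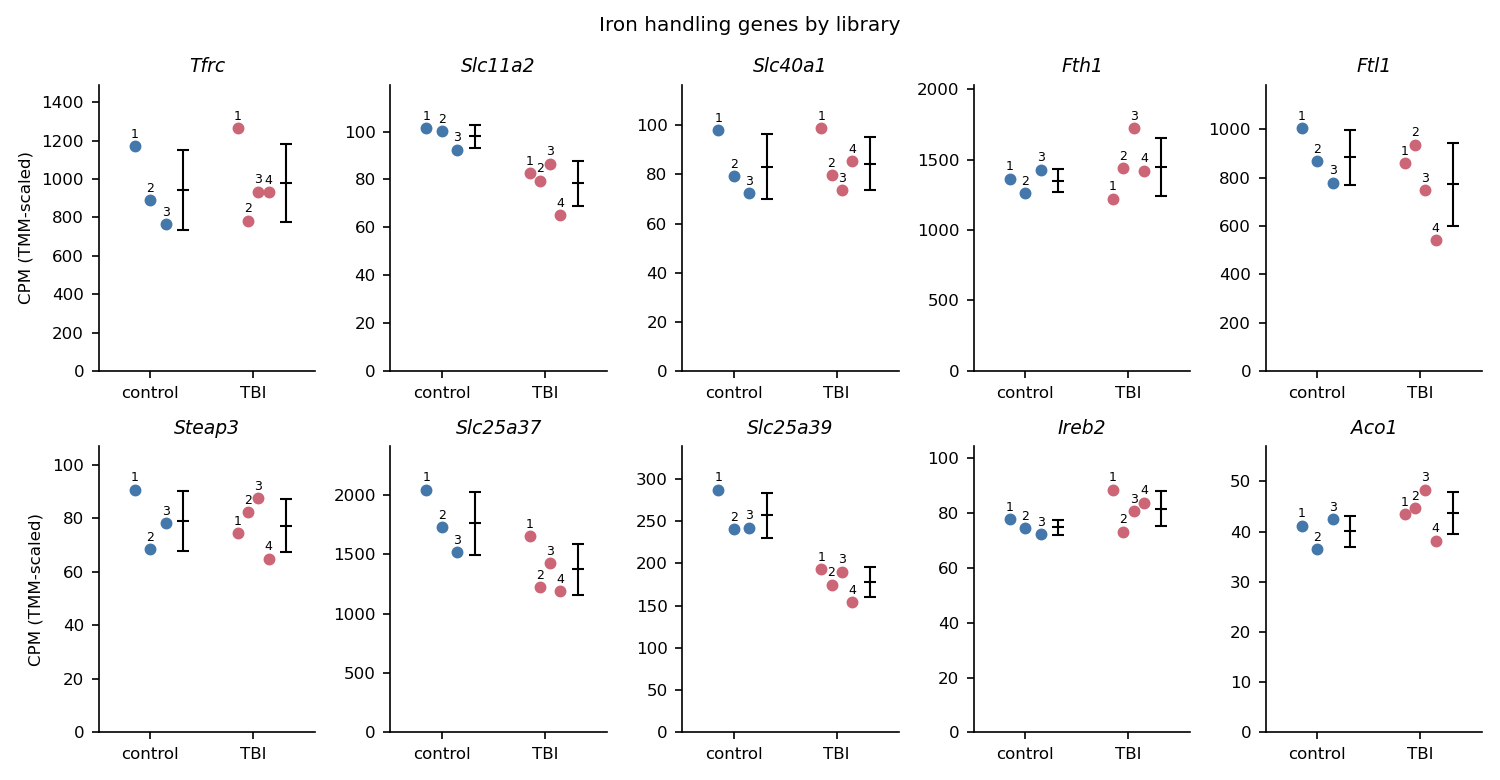
TMM-scaled CPM of the 10 iron genes in each library, with the library number beside each point and the mean and SD of each group as a bar. Slc25a39 and Slc11a2 show no overlap between the control and TBI libraries, and the other 8 genes overlap.

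Values are given below as CPM, each gene's count relative to the library total after scaling by TMM, which corrects for differences in composition. Total counts were 15461528 to 21783534 per library, and the member with the fewest counts, Aco1, had 579 to 1050 per library. Markers of the labelled tissue were present: all 10 osteoblast markers, all 15 muscle markers and 19 of 20 listed erythroid markers passed the filter on low counts. The remaining erythroid marker was not found by symbol in the count table, so the filter did not remove it. The share of counts from skeletal muscle markers was 2.34% to 7.18% among controls and 2.82% to 11.7% among TBI libraries, most in TBI 3 and TBI 4. The late neutrophil list stood lower in TBI 3 than in any other library. In bulk RNA, fewer cells of a type and less RNA per cell cannot be told apart.

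Uptake begins with Tfrc, the transferrin receptor (ENSMUSG00000022797, protein coding, chromosome 16, 32608920 to 32632794, plus strand). Tfrc measured 1169.6, 889.9 and 763.3 CPM in controls 1 to 3 and 1265, 782.9, 934.5 and 932.0 CPM in TBI 1 to 4. The highest library of each group was its number 1, and the groups overlapped throughout. Its log2 fold change was 0.06 ± 0.22 (SE; edgeR adjusted p = 0.955), and the sign turned without control 3 (-0.0743) or without TBI 1 (-0.0930).

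Steap3, the reductase that converts the iron in the endosome so that it can leave, is on chromosome 1 (ENSMUSG00000026389, 120190757 to 120272705, minus strand). It measured 90.7, 68.4 and 78.3 CPM in controls and 74.4, 82.3, 87.6 and 64.9 CPM after TBI. The lowest value of all 7 libraries, in TBI 4, and the highest, in control 1, left the other 5 mixed. Its estimate was -0.03 ± 0.15 on the log2 scale (SE; edgeR adjusted p = 0.957).

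Slc11a2, also called DMT1, carries the reduced iron across the endosomal membrane (ENSMUSG00000023030, chromosome 15, 100387898 to 100425072, minus strand). It measured 101.4, 100.1 and 92.4 CPM in controls and 82.5, 79.4, 86.5 and 65.0 CPM after TBI, so no TBI library reached a control. The means were 98.0 ± 4.85 CPM (SD, n = 3) and 78.4 ± 9.36 CPM (SD, n = 4). The log2 fold change was -0.32 ± 0.13 (SE), with an unadjusted p of 0.0312 and an adjusted p of 0.647 in edgeR and an adjusted p of 0.452 in DESeq2. The groups overlapped for the receptor and the reductase and not for the transporter. Whether these genes differ from one another in their response was not tested.

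Export rests on Slc40a1, ferroportin, the known iron exporter of mammalian cells (ENSMUSG00000025993, chromosome 1, 45908068 to 45926523, minus strand). It measured 97.9, 79.2 and 72.5 CPM in controls and 98.8, 79.7, 73.5 and 85.3 CPM after TBI. Control 1 and TBI 1 were highest, and the group means were 83.2 ± 13.2 CPM (SD, n = 3) and 84.3 ± 10.8 CPM (SD, n = 4). The estimate of 0.02 ± 0.15 (SE; edgeR adjusted p = 0.975) turned in sign with upper quartile scaling (-0.0230) and without control 2 (-0.0129), control 3 (-0.0715) or TBI 1 (-0.0663). Macrophage markers are given beside it because ferroportin is abundant in iron-recycling macrophages: 14 of the 15 listed were tested, their summed level was 465.4 to 562.2 CPM in controls and 399.1 to 704.4 CPM after TBI, highest in TBI 1, and none was at 0 in all libraries. Their part in the Slc40a1 values was not tested.

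Storage depends on the ferritin shell, built from a heavy chain that oxidizes iron (Fth1, ENSMUSG00000024661, chromosome 19, 9980598 to 9985098, plus strand) and a light chain that helps the mineral core form (Ftl1, ENSMUSG00000050708, chromosome 7, 45457944 to 45459884, minus strand). Fth1 measured 1364, 1263 and 1428 CPM in controls and 1223, 1437, 1723 and 1421 CPM after TBI. TBI 3 was above all other libraries and TBI 1 below all. The log2 fold change of Fth1 was 0.10 ± 0.18 (SE; edgeR adjusted p = 0.881), and 0.0096 without TBI 3.

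Ftl1 measured 1004, 868.8 and 778.5 CPM in controls and 860.1, 936.3, 747.5 and 541.9 CPM after TBI. TBI 4 held the lowest value, TBI 1 and TBI 2 lay within the range of the controls, and TBI 3 lay just below it. The log2 fold change of Ftl1 was -0.20 ± 0.21 (SE; edgeR adjusted p = 0.812), and -0.0595 without TBI 4. Ferritin light chain has many processed copies in the mouse genome: 7 other genes matched its coding sequence at 90% identity or more over at least 200 bases, Ftl1-ps1 among them at 99.6%. These 7 together held 2.19% to 2.81% of the reads counted to Ftl1 and them, so how reads were split between near-identical copies leaves the Ftl1 level uncertain. An antisense gene over Ftl1, Gm10252, had 16 to 71 counts. Fth1 had 1 such copy, with at most 48 counts.

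The log2 ratio of Fth1 to Ftl1 was 0.44, 0.54 and 0.87 in controls and 0.51, 0.62, 1.20 and 1.39 in TBI 1 to 4. TBI 3 and TBI 4 had the 2 highest ratios, and they also had the highest muscle shares (9.47% and 11.7% of counts). The difference between groups was 0.31 (two-sided exact permutation p = 0.343, adjusted p = 0.686 over the 10 ratios tested), and it ranged from 0.16 to 0.45 with each library left out. Once muscle expression entered the fit, Fth1 stood at 0.04 ± 0.11 and Ftl1 at -0.06 ± 0.12 (SE), beside 0.10 and -0.20 without it. Erythroid expression in its place gave 0.04 and 0.16, and late neutrophil expression 0.21 and -0.27. The ratio itself was not fitted in this way, so the part of muscle in it was not tested. The ferritin genes summed to 0.230% ± 0.0206 of control counts (SD, n = 3), beside 0.219% ± 0.0354 in TBI libraries (SD, n = 4; two-sided exact permutation p = 0.914).

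Mitochondria receive iron through Slc25a37, mitoferrin 1, the importer that red cell precursors depend on (ENSMUSG00000034248, chromosome 14, 69241848 to 69285112, minus strand). Slc25a37 measured 2045, 1729 and 1517 CPM in controls and 1653, 1225, 1428 and 1189.6 CPM after TBI. Only TBI 1 exceeded a control, namely control 3, and the groups no longer overlapped when either of these was left out. The means were 1764 ± 265.5 CPM (SD, n = 3) and 1374 ± 213.6 CPM (SD, n = 4). Its log2 fold change was -0.36 ± 0.20 (SE; adjusted p = 0.735 in edgeR and 0.575 in DESeq2). It ranged from -0.46 (without TBI 1) to -0.24 (without control 1, the library with the most erythroid RNA). A stretch of 211 bases is shared in full with Gm16867, which held at most 291 counts in a library.

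Slc25a39, a carrier of the same family that brings glutathione into mitochondria, lies on chromosome 11 (ENSMUSG00000018677, 102402985 to 102407946, minus strand). It measured 287.4, 240.9 and 242.3 CPM in controls and 193.6, 175.0, 190.1 and 154.5 CPM after TBI. The lowest control stood well above the highest TBI library, and TBI 4 was again the lowest. The means were 256.8 ± 26.4 CPM (SD, n = 3) and 178.3 ± 17.8 CPM (SD, n = 4). The estimate was -0.53 ± 0.14 on the log2 scale (SE), with an unadjusted p of 0.0040 and an adjusted p of 0.443 in edgeR. In DESeq2 it fell by 0.52 on the log2 scale (adjusted p = 0.0287). Across the 19 alternative settings its adjusted p ran from 0.0287 to 0.987 and its estimate from -0.57 to -0.28.

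**Figure D2:**
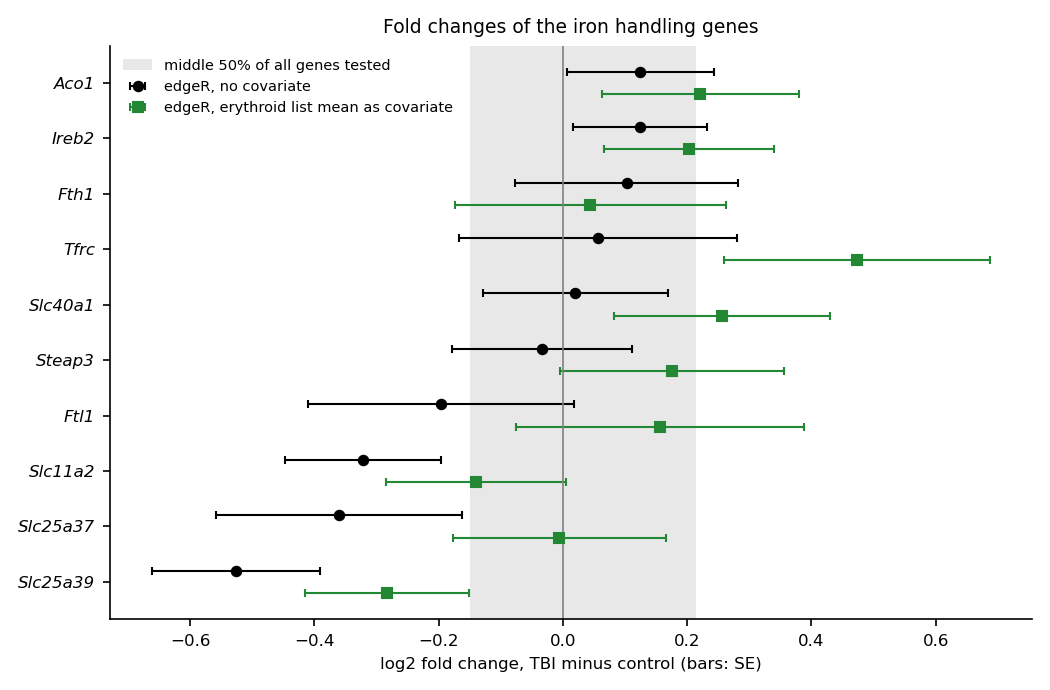
Log2 fold change (TBI minus control) with its SE for each iron gene in edgeR, without a covariate (circles) and with the mean of the erythroid list as a covariate (squares), over the middle 50% of all genes tested (grey). Slc25a37 moves from -0.36 to -0.01 with the covariate, Slc25a39 from -0.53 to -0.28, and Tfrc from 0.06 to 0.47. The list mean was itself lower on average after TBI (9.33 against 9.70 log2 CPM in controls).

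Red cell precursors are the largest iron users of the marrow, so the members were set beside their markers. All 19 tested erythroid markers had an estimate below 0 (median log2 fold change -0.29), and none was called in edgeR over all genes tested (5 at an unadjusted p under 0.05, 5 in DESeq2). Of all genes tested, 45.6% were below 0 and 4.97% were lower at an unadjusted p under 0.05 in edgeR. DESeq2 called 0.672% of the genes with an adjusted p lower. Their summed level was 48472 to 56441 CPM in controls and 26293 to 36774 CPM after TBI, and no marker was at 0 in all libraries. Alas2, the erythroid enzyme that starts heme synthesis, averaged 1806 ± 242.8 CPM among controls (SD, n = 3) and 1135 ± 205.0 CPM among TBI libraries (SD, n = 4), a log2 fold change of -0.67 ± 0.20 (SE; adjusted p = 0.521 in edgeR and 0.0426 in DESeq2). Hba-a2 and Hbb-bs, globin genes with near-identical copies, were at -0.93 ± 0.22 and -0.77 ± 0.27 (SE; DESeq2 adjusted p = 0.00048 and 0.0031, edgeR 0.423 and 0.604).

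Averaged over the list, erythroid expression was 9.96, 9.61 and 9.54 log2 CPM in controls, against 9.58, 9.27, 9.38 and 9.06 log2 CPM in TBI 1 to 4. The distance of Slc25a37 to it varied little: the log2 ratio of Slc25a37 to the list mean was 1.04, 1.15 and 1.03 in controls and 1.11, 0.99, 1.10 and 1.15 after TBI. The difference between groups was 0.015, within the SD of either group (0.0648 and 0.0706; exact permutation p = 0.743). With the list mean as a covariate, the Slc25a37 estimate was -0.01 ± 0.17 (SE). The list mean itself averaged 9.70 log2 CPM in controls and 9.33 log2 CPM after TBI, so in this fit it cannot be told apart from the injury. The part of red cell precursors in the Slc25a37 values was not tested.

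For Tfrc this distance differed more between libraries. Its log2 ratio to the erythroid list mean was 0.23, 0.19 and 0.0352 in controls and 0.72, 0.34, 0.48 and 0.80 in TBI 1 to 4, so every TBI library lay above every control. The difference was 0.43 (exact permutation p = 0.0571, the smallest that 3 against 4 libraries allow; adjusted p = 0.381 over the 10 ratios), and 0.36 to 0.52 with each library left out. As a covariate, the list mean moved the Tfrc estimate to 0.47 ± 0.21 (SE; edgeR adjusted p = 0.439). Tfrc is also made by dividing cells of other lineages, and the mean of 10 proliferation markers was 7.86 to 8.25 log2 CPM in controls and 7.60 to 8.19 log2 CPM after TBI; their part in the Tfrc values was not tested. With the same covariate, Slc25a39 and Slc11a2 stood below both Slc25a37 and Tfrc, at -0.28 ± 0.13 and -0.14 ± 0.15 (SE; edgeR adjusted p = 0.447 and 0.714).

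**Figure D3:**
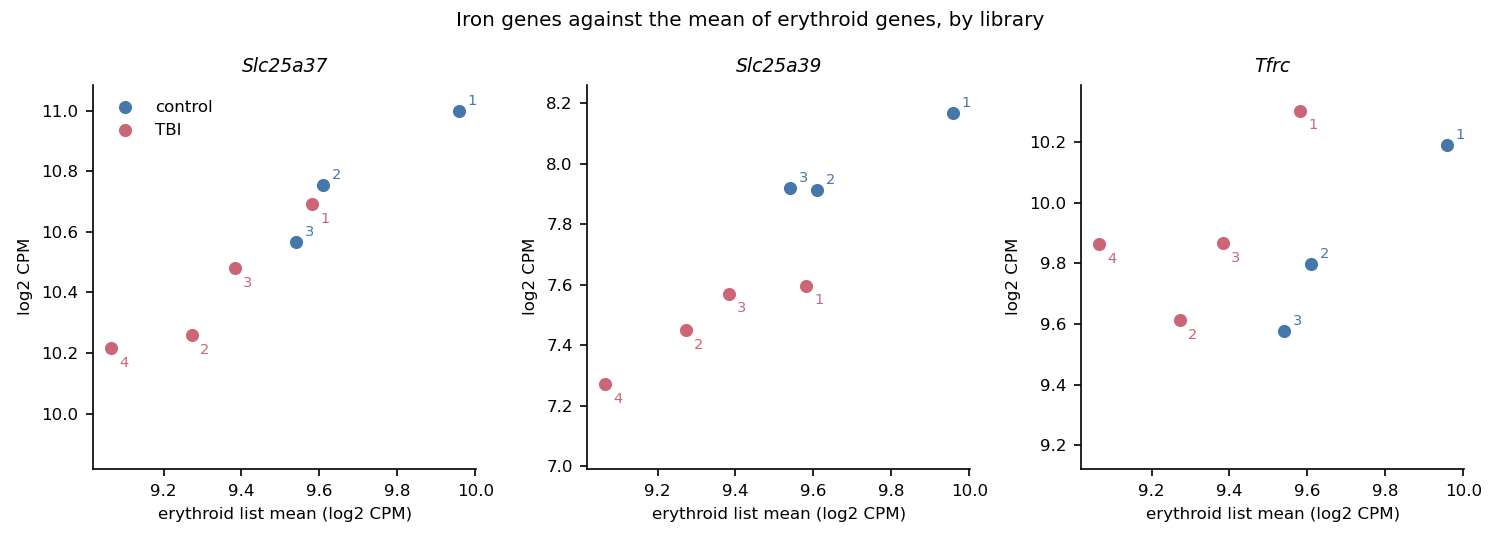
Log2 CPM of Slc25a37, Slc25a39 and Tfrc (vertical axes, each spanning a similar range) against the mean log2 CPM of 19 erythroid genes, one point per library with its number. The libraries line up along one band for Slc25a37, while for Tfrc TBI 1 stands above controls 2 and 3, which have a similar erythroid mean.

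Slc25a28, mitoferrin 2, is the importer that most other cells use. It measured 26.8, 30.5 and 30.2 CPM in controls and 32.5, 32.1, 32.1 and 30.4 CPM after TBI, at 0.12 ± 0.10 (SE; edgeR adjusted p = 0.773). The log2 ratio of Slc25a37 to Slc25a28 averaged 5.91 ± 0.31 (SD) over the 3 controls and 5.42 ± 0.19 (SD) over the 4 TBI libraries, a difference of -0.49 (exact permutation p = 0.114, adjusted p = 0.381). It ranged from -0.62 without control 3 to -0.32 without control 1. The groups of this ratio overlapped.

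The sensors are Ireb2 (iron regulatory protein 2, ENSMUSG00000032293, chromosome 9, 54863789 to 54912530, plus strand) and Aco1 (iron regulatory protein 1, ENSMUSG00000028405, chromosome 4, 40143081 to 40198338, plus strand), which grip the hairpins above. Ireb2 is removed by degradation and Aco1 turns into a cytosolic aconitase when iron is plentiful, so neither activity can be read from mRNA. Ireb2 measured 77.9, 74.6 and 72.3 CPM in controls and 88.6, 73.3, 80.8 and 83.8 CPM after TBI. Aco1 measured 41.2, 36.5 and 42.5 CPM in controls and 43.5, 44.7, 48.4 and 38.2 CPM after TBI. Most TBI libraries lay above the controls for both genes, with TBI 2 the exception for Ireb2 and TBI 4 for Aco1, and the estimates were 0.12 ± 0.11 and 0.12 ± 0.12 (SE; edgeR adjusted p = 0.774 and 0.788). Their log2 ratio differed between groups by -0.0017 (exact permutation p = 0.971), with a range of -0.0784 to 0.0619 when each library was left out.

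Set side by side per length, as CPM per kilobase of the union of exons, the members spanned a wide range of levels. In controls Ftl1 stood at 659.6 ± 84.8 and Fth1 at 389.6 ± 23.9 (SD, n = 3), then Slc25a37 at 292.9 ± 44.1, Tfrc at 152.1 ± 33.6 and Slc25a39 at 93.2 ± 9.59. Slc11a2 (15.4 ± 0.764), Steap3 (13.8 ± 1.95), Slc40a1 (9.24 ± 1.46), Aco1 (8.91 ± 0.701) and Ireb2 (7.90 ± 0.294) followed. Over all 7 libraries the ranges of neighbours overlapped for Ftl1 and Fth1, Slc25a37 and Tfrc, Slc11a2 and Steap3, Slc40a1 and Aco1, and Aco1 and Ireb2. The order at the top depends on the length used: by coding length Fth1 (2475), Slc25a37 (1739) and Ftl1 (1609.9) came in that order. The paralog Slc25a28 stood at 7.78 CPM per kilobase of exon union in controls, beside 292.9 for Slc25a37.

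The remaining pairs set the steps of iron handling against each other. Tfrc to Slc40a1, import against export, stood at a log2 ratio of 3.49 ± 0.0910 (SD) over the 3 controls and 3.52 ± 0.18 (SD) over the 4 TBI libraries (exact permutation p = 0.857). Slc11a2 to Slc40a1 went from 0.25 ± 0.17 to -0.11 ± 0.28 (exact permutation p = 0.114, adjusted p = 0.381), with overlapping groups. Slc25a37 to Slc25a39 differed by 0.17 (exact permutation p = 0.171, adjusted p = 0.429; 0.10 without control 3), Tfrc to Fth1 by -0.0363 (exact permutation p = 0.914) and Steap3 to Tfrc by -0.0903 (exact permutation p = 0.743). None of the 10 ratios passed after adjustment, and the design cannot give a p below 0.0571.

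Beyond the members, 0 of the genes on the other iron lists passed in edgeR over all genes tested (1 in DESeq2, Alas2), and the genes named are from those with the smallest p on each list. Of 14 tested genes of other iron uptake routes, 8 were below 0 and 6 above (median -0.0602, but 0.0044 without control 1 and -0.13 without control 3). Exoc6, which helps return transferrin receptor vesicles in red cell precursors, measured 55.6, 49.0 and 56.5 CPM in controls and 69.4, 64.8, 82.9 and 73.6 CPM after TBI. Every TBI library was above every control, at a log2 fold change of 0.44 ± 0.12 (SE; adjusted p = 0.483 in edgeR and 0.146 in DESeq2). The metalloreductases Steap2 (-0.76 ± 0.23) and Cybrd1 (-0.53 ± 0.19) were lower in every TBI library, from 4.54 to 2.68 and from 8.18 to 5.64 CPM on average. Both are at low levels, and the mean of 10 osteoblast markers was also lower in each TBI library (7.75 to 8.17 log2 CPM against 8.36 to 8.96); its part in these values was not tested.

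The genes that load and unload ferritin or carry iron in the cytosol were mostly above 0 (5 of 6 tested, median 0.14, and 0.0791 without TBI 2), with Glrx3 at 0.34 ± 0.18, Fbxl5, the ubiquitin ligase subunit that degrades iron regulatory protein 2, at 0.26 ± 0.17, and Pcbp2, an iron chaperone, at 0.12 ± 0.11. Their groups all overlapped. The Glrx3 estimate was -0.03 with the erythroid, 0.17 with the muscle and 0.48 with the neutrophil covariate, and that of Fbxl5 was 0.36, 0.30 and 0.07. Of 9 tested genes of export and systemic control, 6 were below 0. Their median of -0.22 was -0.0296 without TBI 1 and -0.29 without TBI 3. As covariates, erythroid, muscle and late neutrophil expression gave -0.0572, -0.20 and 0.00068. Erfe, the hormone by which red cell precursors lower hepcidin, measured 4.78, 2.52 and 1.77 CPM in controls and 12.7, 5.07, 4.66 and 2.74 CPM after TBI. TBI 1 carried the highest value, and the groups overlapped. The Erfe estimate of 1.05 ± 0.55 (SE, edgeR adjusted p = 0.726) ranged from 0.45 to 1.56 with a library left out. It was 2.40 ± 0.32 with the erythroid, 1.44 ± 0.26 with the muscle and 0.60 ± 0.46 with the neutrophil covariate (SE, edgeR adjusted p = 0.386, 0.0639 and 0.583). The ferroxidase Cp was at -0.27 ± 0.13 and Neo1, a receptor that binds hemojuvelin, at -0.25 ± 0.15.

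Of 18 tested mitochondrial iron and iron-sulfur cluster genes, 8 were below 0 and 10 above (median 0.0362, between -0.0024 and 0.0805 with a library left out). Nfu1, which hands on iron-sulfur clusters, was higher in every TBI library (28.9 ± 1.52 CPM, SD, n = 3, against 36.2 ± 3.85 CPM, SD, n = 4; log2 fold change 0.32 ± 0.12), and the co-chaperone Hscb lower in every one (-0.28 ± 0.12). Of 13 tested genes of heme transport and recycling, 10 were below 0. Their median of -0.12 was -0.0076 without control 1, -0.23 without control 3 and 0.0571 once erythroid expression was a covariate. The receptor Lrp1, which clears hemopexin-bound heme, measured 318.6, 362.4 and 355.1 CPM in controls and 247.0, 291.4, 282.9 and 216.1 CPM after TBI, with no overlap and a log2 fold change of -0.41 ± 0.15 (SE; edgeR adjusted p = 0.609). Flvcr2 stood at -0.64 ± 0.24. Hp, the plasma protein that binds free hemoglobin, stood at 0.93 ± 0.36 with overlapping groups, and like the late neutrophil list mean (8.86 log2 CPM in TBI 1 against 6.87 to 7.55 in controls) it was highest in TBI 1. The Hp estimate was 0.40 ± 0.16 with the neutrophil, 1.46 ± 0.41 with the erythroid and 1.12 ± 0.22 with the muscle covariate (SE). Leaving out each library gave 0.63 to 1.16. The part of neutrophils in the Hp values was not tested.

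Among the 8 genes listed as carrying iron-responsive elements, 3 were below 0 and 5 above (median 0.0381). The 5 members on that list, with 3 hairpins in 5′ UTRs and the Tfrc hairpins in the 3′ UTR found by the search, had no common direction, and Slc11a2 is on the list without a match: Slc11a2 was at -0.32, Ftl1 at -0.20, Slc40a1 at 0.02, Tfrc at 0.06 and Fth1 at 0.10. Epas1, a hypoxia-inducible factor, was at 0.17 ± 0.24. Of 14 targets of NRF2, the oxidative stress factor that also drives ferritin genes, 7 were below 0 and 7 above (median 0.0512), with Gsr at 0.65 ± 0.27, Pgd at 0.44 ± 0.26 and Nqo1 at -0.28 ± 0.15. Gsr measured 262.3, 192.8, 112.5 and 165.9 CPM in TBI 1 to 4, and Pgd 178.0, 149.8, 82.8 and 112.6 CPM. Both were highest in TBI 1 and lowest in TBI 3 among TBI libraries, as was the late neutrophil list mean (8.86, 8.11, 6.34 and 7.93 log2 CPM). With that mean as a covariate Gsr stood at 0.25 ± 0.13 and Pgd at 0.0819 ± 0.14 (SE). Both rose with the other covariates: Gsr to 1.04 (erythroid) and 0.81 (muscle), and Pgd to 0.85 and 0.63. Leaving out each library gave 0.42 to 0.82 for Gsr and 0.26 to 0.61 for Pgd. The part of neutrophils in these values was not tested further.

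**Figure D4:**
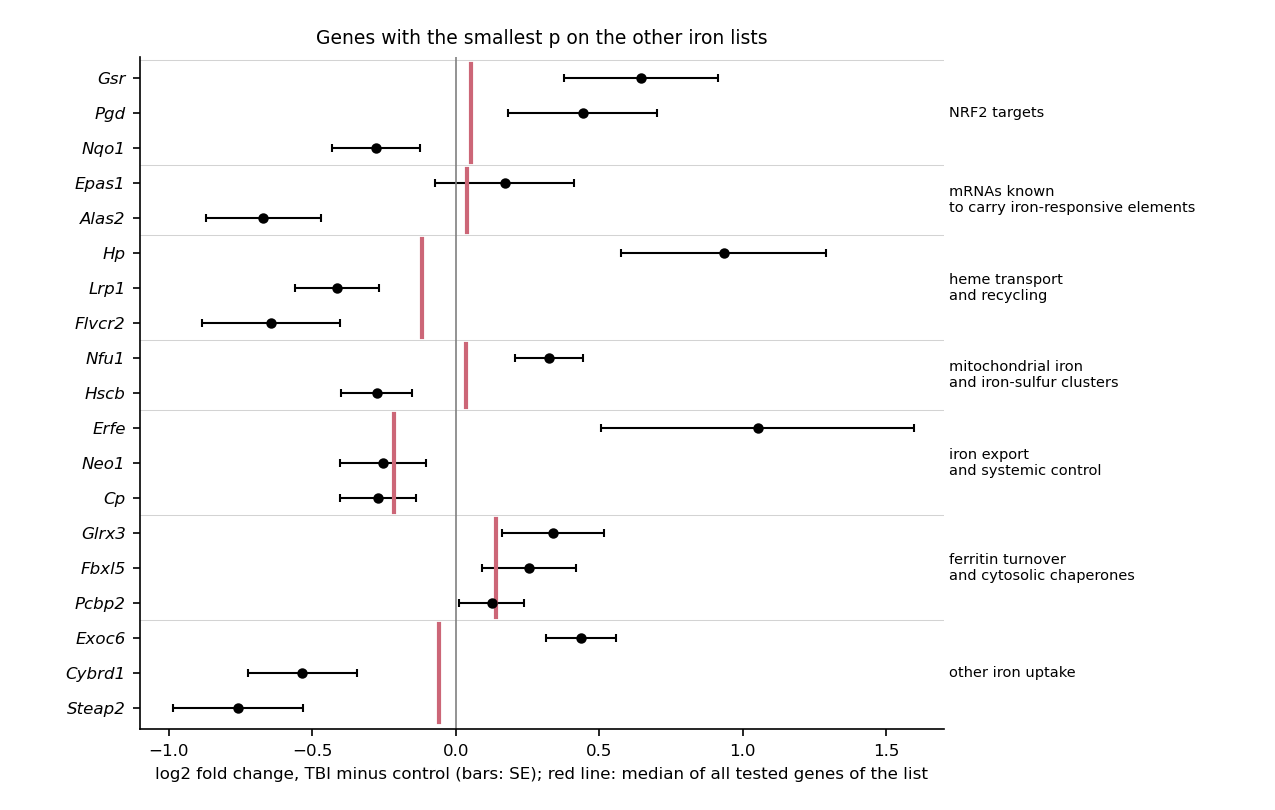
Log2 fold change (TBI minus control) with its SE in edgeR for genes with the smallest p on each of 7 other iron lists, up to 3 a list, members excluded. The red line is the median of all tested genes of the list, members included where they stand on it; it lies between -0.22 and 0.14 for every list.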

How the data were processed

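Femur mRNA of 3 control and 4 TBI libraries was measured. Per the labels' protocols, crushed bone was extracted with Trizol and columns, and library preparation kept strand. The authors deposited whole-number read counts per gene. The submitters' processing notes name STAR, DESeq and GRCm38, while the counting step is not given in any source used here. The deposited normalized table was not used. GENCODE M21 gave symbols, lengths and sites, matching 49412 of 49671 identifiers (99.5%). Counts were filtered with filterByExpr (17144 genes left), scaled by TMM and tested with edgeR 4.0.16 (quasi-likelihood F-test, R 4.3.3) with Benjamini-Hochberg adjustment at 0.05, on all 7 libraries. DESeq2 1.42.0 and limma-voom (limma 3.58.1) were alternatives. Standard errors come from the estimate and its F statistic. Ratios are differences of log2 CPM with a prior count of 0.5, tested by exact permutation of the 35 splits, with Benjamini-Hochberg adjustment over the 10 ratios. In simulated data the fit called 1 of 65 genes that differed 1.5-fold. For larger differences it called 16 of 65 (2-fold) and 52 of 62 (4-fold). False calls numbered 2. The members differed at most 1.44-fold (Slc25a39), so the lack of calls among them does not show that they were unchanged. All members were named; from each other iron list, the 3 non-member genes with the smallest p and any past the threshold; Alas2, Hba-a2 and Hbb-bs were fixed. Some genes that this rule names are not reported here. Slc25a28 was named as the partner in a ratio. The members and lists were chosen with earlier results of these data known. The chi-square per degree of freedom between libraries of a group was at least 27.2, so none counted as a duplicate.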

Additional observations from a re-analysis of the deposited data

How the results depend on the processing

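DESeq2 called 10 genes higher and 104 lower, 1 of them a member (Slc25a39), against 0 in edgeR; the cause was not tested. The other 18 alternatives called 0 members. The median of the members stayed between -0.0850 and 0.17, and between -0.0797 and 0.0923 with each library left out. Of 190 member estimates under alternatives, 172 kept direction and call, 1 (Slc25a39 in DESeq2) passed the threshold and 17 turned in sign; for those the cause was not tested. Slc25a39, Slc25a37, Slc11a2, Ireb2 and Aco1 turned in none. Tfrc turned with the neutrophil covariate (-0.0590) and ranged from -0.0930 to 0.24 with a library left out. Slc40a1 turned with upper quartile scaling (-0.0230) and the neutrophil covariate (-0.11) and ranged from -0.0715 to 0.15. Steap3 turned with voom quality weights (0.0956) and with the erythroid (0.18) and muscle (0.0064) covariates, and ranged from -0.13 to 0.0757. Ftl1 turned with the erythroid covariate (0.16). With both TBI 3 and TBI 4 left out, an alternative added after seeing their muscle shares, Fth1 (-0.0474) and Ftl1 (0.00091) turned. The count of members without overlap was 2 to 3 with a library left out. Leaving libraries out cannot create overlap, so this does not test that count.

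The near-zero ratios turned with a library left out: Tfrc to Slc40a1 (-0.0174 to 0.11), Ireb2 to Aco1 (-0.0784 to 0.0619), Tfrc to Fth1 (-0.25 to 0.12), Slc25a37 to the erythroid mean (-0.0067 to 0.0525) and Steap3 to Tfrc (-0.22 to 0.0559). A prior count of 2 turned none. Same-numbered libraries did not all deviate together (r = 0.508, -0.0198 and 0.291), and control 2 correlated best with TBI 3 (0.159), so the numbers were not taken as pairs; with the replicate number as a block 0 genes were called and Steap3 stood at 0.0469. Depth limits Aco1 most among the members, with 579 counts in control 2.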
